A study of Solanum lycopersicum with 24 samples.

Results

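This report describes 150 tomato loci that were selected on their transcript levels: high in both SlWRKY71 knockout lines and low in 2 libraries with SlWRKY71 overexpressed. Levels are given as CPM, the estimated count of a locus scaled to the total count of its library. Loci were eligible with a mean of at least 2 CPM in each knockout line. They were ranked by the log2 ratio of the lower knockout-line mean plus 0.5 CPM to the higher of overexpression libraries 4 and 5 plus 0.5 CPM, and the top 150 were taken. A stretch of chromosome 12, from Solyc12g056740 to Solyc12g096760, was left out by the rule. Of 34688 loci in the table, 14341 were eligible outside that stretch, so the members are 1.05% of them.

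WRKY proteins are a plant family of DNA-binding transcription factors, many of which bind the W-box, and many of whose known members act in responses to pathogens and stress. The MYB factors SlMYB41 and SlMYB92 belong to a family whose relatives in Arabidopsis switch on suberin synthesis. Suberin is a polyester of fatty acids and phenolics that tomato roots lay down in the exodermis, the outer cortical layer. No source used here pairs the locus identifiers with gene products, so members are given by identifier, and no function, pathway list, cell type marker or promoter could be assigned to them. For the same reason the labelled tissue could not be checked against marker genes.

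The samples were hairy roots of the cultivar M82, which are root cultures grown from tissue transformed by Rhizobium rhizogenes, with 1 cm tips of 10 roots pooled per sample after 9 days in the dark. There were 8 groups of 3 libraries each. The control carried an empty vector; the overexpression groups carried SlMYB41, SlMYB92 or SlWRKY71 fused to 3xFLAG and driven by the constitutive CaMV 35S promoter; the knockouts were made with CRISPR/Cas9 in SlMYB41, in SlMYB92, and in SlWRKY71 as lines ko(4) and ko(5). No other group is labelled as having more than 1 line, so groups and individual root lines cannot be told apart, and p-values measure only the spread between these samples. Each library goes by the number in its column heading of the deposited table, which differs from the replicate number of the labels. They held 4852464 to 15372241 estimated counts. In such bulk tips, fewer cells of a type and less RNA per cell cannot be told apart.

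Library 2 of SlWRKY71 overexpression stood apart from the other libraries of its group. Across eligible loci, its log2 levels had a Pearson correlation of 0.932 with library 4 and 0.911 with library 5, against 0.966 between libraries 4 and 5 and a mean of 0.953 with the control libraries. The locus taken to be SlWRKY71, Solyc02g071130, was at 4.90 CPM in library 2, 45.7 CPM in library 4 and 29.4 CPM in library 5. Its control libraries were at 2.14, 1.65 and 1.19 CPM, so library 2 was above them but far below libraries 4 and 5. Library 2 was also within the range of libraries without this transgene, which reached 5.98 CPM in library 3 of the SlMYB92 knockout. In knockout line 4 the same locus stood at 3.06, 1.01 and 1.89 CPM and in line 5 at 1.35, 4.33 and 0.431 CPM, which overlaps the control, and edited transcripts can still be counted. SlMYB41 (Solyc02g079280) stood at 12.7, 13.9 and 6.67 CPM in its own overexpression libraries and SlMYB92 (Solyc05g051550) at 48.0, 91.1 and 58.1 CPM in its own. These locus names were recalled and checked against no table, and none of the 3 loci is a member.

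The values that chose the members spanned a wide range and are given as a description, with no test. The ratio used for ranking had a median of 5.23, a lowest value of 3.52 and a highest of 44.5. It reached 4 for 112 members, 8 for 34 and 16 for 10. In the lower knockout line 89 members averaged 10 CPM or more, and 24 reached 100 CPM in either line. Libraries 4 and 5 together held 3 counts or fewer for 25 members, and 7 members had no count in either. Only 1 member had no count in any of the 3 overexpression libraries. For 144 members (96%) both libraries lay below all 6 knockout libraries, as they did for 16.6% of eligible loci; the rule used these libraries, so nothing is read from this share. The mean of a knockout line came mostly from 1 library in 8 members, where that library held over 80% of the line's summed CPM.

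Summed over the members, libraries 4 and 5 of SlWRKY71 overexpression held 1269 and 1080 CPM, and library 2 held 3324 CPM. Knockout line 4 held 8617, 6373 and 10237 CPM, and line 5 held 9283, 15176 and 9712 CPM. The control libraries, at 3884, 3082 and 5060 CPM, lay between the groups that chose the members. Line 5 was above line 4 in 110 members, with a median log2 difference of 0.51 against 0.01 over eligible loci, and its library 3 had the highest sum of the 24.

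**Figure D1:**
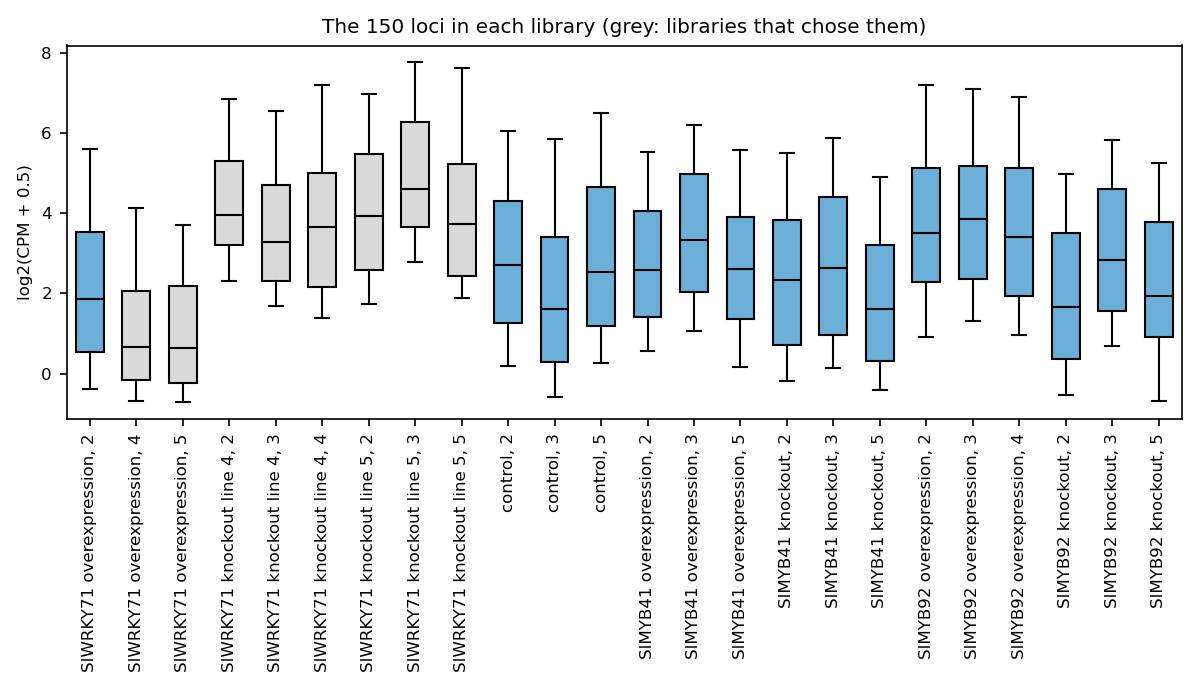
Levels of the 150 members, as log2(CPM + 0.5), in each of the 24 libraries. Boxes span the quartiles with the median as a line, and whiskers run from the 10th to the 90th percentile; the libraries that chose the members are grey. Median levels were 1.09 and 1.06 CPM in SlWRKY71 overexpression libraries 4 and 5, 3.13 CPM in library 2, and 10.9, 14.1 and 10.1 CPM with SlMYB92 overexpressed.

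The member ranked first, Solyc09g097810, stood at 0.136, 0.122 and 0.233 CPM in SlWRKY71 overexpression libraries 2, 4 and 5. Line 4 was at 56.0, 21.9 and 18.6 CPM and line 5 at 33.8, 92.1 and 20.2 CPM, against 4.66, 0.165 and 2.58 CPM in the control. All 3 overexpression libraries, which held 1, 1 and 2 counts, were thus below every knockout library, while control library 3 overlapped them. Among the MYB groups this locus ranged from 0 CPM in an SlMYB92 knockout library to 41.5 CPM in an SlMYB41 overexpression library.

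The next member, Solyc07g007755, was at 3.13, 0.243 and 0.466 CPM in the overexpression libraries. Its knockout libraries ran from 13.7 to 38.4 CPM in line 4 and from 26.2 to 121 CPM in line 5, and its control libraries stood at 19.3, 0.987 and 1.29 CPM. Library 2 and the control overlapped, and the control was low in 2 of 3 libraries. It was highest with SlMYB92 overexpressed, at 50.8, 210 and 44.4 CPM.

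Solyc07g056210, at rank 3, stood at 12.6, 1.94 and 3.49 CPM with SlWRKY71 overexpressed, at 177, 33.8 and 108 CPM in line 4 and at 131, 269 and 97.9 CPM in line 5. Its control libraries, at 18.3, 2.47 and 15.6 CPM, lay on both sides of overexpression library 2. Solyc09g006005, at rank 4, stood at 94.6, 2.92 and 6.29 CPM in the overexpression libraries and at 125, 86.5 and 139 CPM in the control. Here library 2 fell within the control range, and libraries 4 and 5 were far below all control libraries. With SlMYB92 overexpressed it was at 602, 967 and 488 CPM, and with SlMYB92 knocked out at 10.9, 63.1 and 14.9 CPM.

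Solyc08g079900 and Solyc10g076220, at ranks 5 and 6, had fractional estimated counts, so their reads were shared with other transcripts by estimation. Solyc08g079900 was at 0.544, 0.123 and 0.116 CPM with SlWRKY71 overexpressed and at 6.61 to 44.7 CPM across the knockout libraries. Solyc10g076220 was at 3.67, 1.82 and 0.815 CPM with SlWRKY71 overexpressed, against 29.5, 5.26 and 17.2 CPM in the control and 28.5 to 104 CPM across the knockout libraries. Of these, Solyc10g076220 had all 3 overexpression libraries below every control library, and Solyc08g079900 had a control library at 0 CPM.

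**Figure D2:**
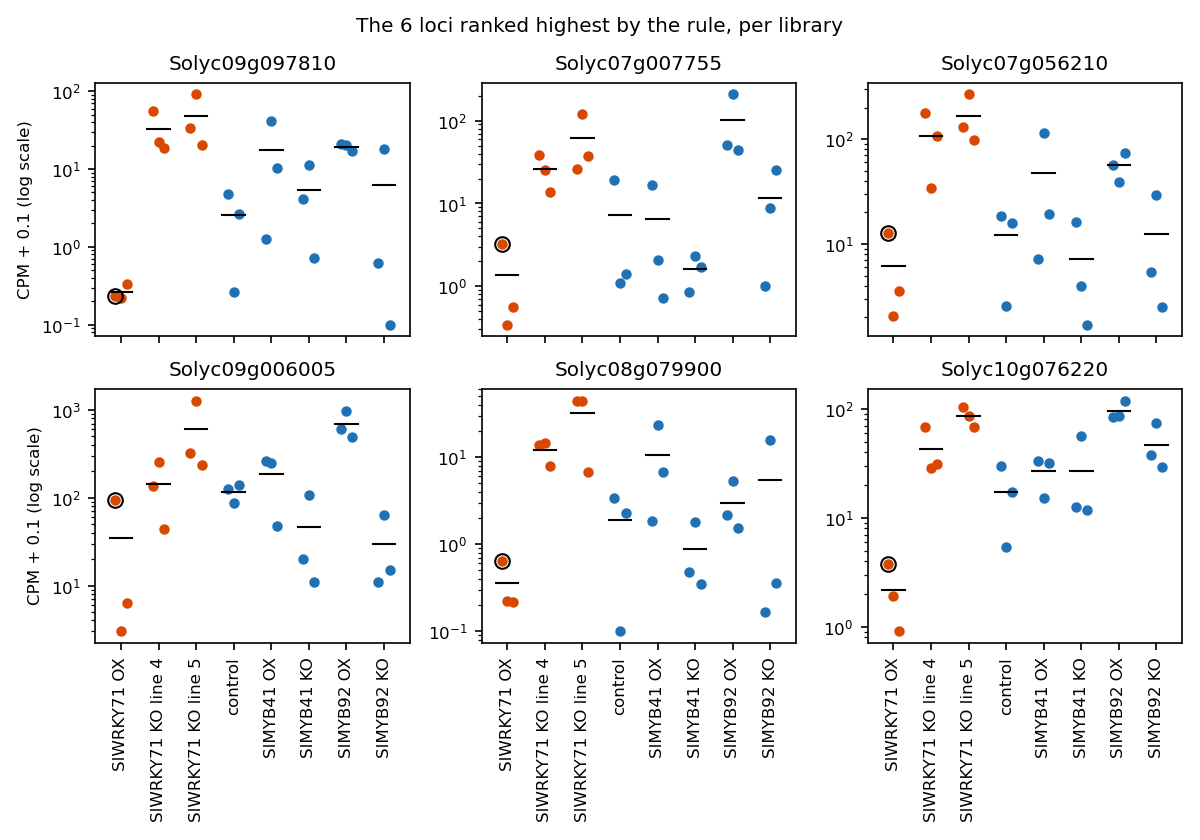
CPM + 0.1, on a log axis, of the 6 members ranked highest, with 1 point per library and a line at each group mean. Orange marks the SlWRKY71 groups, blue the other groups, and a circle marks SlWRKY71 overexpression library 2, which the rule did not use; for Solyc09g006005 it stood at 94.6 CPM, against 2.92 and 6.29 CPM in libraries 4 and 5.

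The 2 members with the highest knockout means differed in ratio. Solyc10g086100, with a ratio of 3.99, stood at 815, 390 and 346 CPM with SlWRKY71 overexpressed, at 1947, 1482 and 1249 CPM in line 4 and at 1369, 3419 and 2023 CPM in line 5. Its control libraries were at 627, 681 and 541 CPM, so libraries 4 and 5 were below the control and library 2 was above it. Solyc03g020030, with a ratio of 9.4 and some fractional counts, stood at 243, 70.7 and 28.9 CPM with SlWRKY71 overexpressed, against 361, 125 and 556 CPM in the control. At the other end, the last members inside the list, Solyc04g010330 and Solyc03g025720, had ratios of 3.54 and 3.52. The first loci outside, Solyc03g082690 and Solyc12g010710, both had a ratio of 3.51.

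Relative to the control, the members were displaced in both directions by the libraries that chose them. The median log2 difference from the control mean was -1.56 in overexpression library 4 and -1.62 in library 5, and 1.26 in line 4 and 1.79 in line 5; over all eligible loci these medians were 0.03, 0.00, -0.09 and -0.08. Libraries 4 and 5 were below every control library for 84 members (56%; 18% of eligible loci) and below every MYB library for 52 (34.7%; 4.34%). They were the 2 lowest of all 24 libraries for 38 members (25.3%; 2.84%). Every control library was below every knockout library for 65 members (43.3%; 7.24%). These counts all rest on libraries the rule used.

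Overexpression library 2 took no part in the choice of members. Since its level of Solyc02g071130 was within the range of libraries without the transgene, its values are given for that library and not for the group. Its median log2 difference from the control mean was -0.26, against -0.10 over all eligible loci. It lay below every control library for 46 members (30.7%; 35.5% of eligible loci) and above every control library for 24 (16%; 20%), so both shares were under the background. Without control library 3, which was the lowest of the control libraries in its median, the count below the control was 82 (54.7%; 41.6%), above the background. Leaving out a control library can only raise such a count. Without control library 5 it was 49, for which no background was computed. Library 2 was below every MYB library for 24 members (16%; 6.61%) and below every knockout library for 114 (76%; 21.4%), the latter again using libraries of the rule.

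Tests were run in 1 edgeR quasi-likelihood fit of the 16 libraries that did not choose the members, with library 2 as a group of its own that is assumed to vary like the others. The fit held 18916 loci, of which 149 were members. The remaining member, Solyc05g012850, did not pass the filter on low counts. That filter counted library 2 as a group, so a sufficient level in 1 library could pass a locus. A locus is called where its Benjamini-Hochberg adjusted p is under 0.05. For library 2 against the control, 0 members were higher (0.148% of all loci tested) and 1 was lower (0.0529%), while 22 members (14.8%; 6.56% of all loci tested) had an unadjusted p under 0.05 and DESeq2 called 3 (2.07%; 0.36%). The members' median log2 difference was -0.18, against -0.03 over all loci tested.

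The member called lower was Solyc12g013690, at rank 12. It stood at 9.52 CPM in library 2, 5.71 CPM in library 4 and 4.19 CPM in library 5, against 120, 69.9 and 120 CPM in the control. The MYB libraries ran from 44.0 to 89.3 CPM and the SlWRKY71 knockout libraries from 63.7 to 128 CPM, so all 3 overexpression libraries lay below the other 21 and the knockout and control ranges overlapped. Its log2 difference between library 2 and the control was -3.29 (SE 0.43; edgeR adjusted p = 0.001), and it was not called when only library 2 and the control were fitted (edgeR adjusted p = 0.058).

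Against the mean of the 4 MYB groups, library 2 had 1 member called higher (0.169%) and 1 lower (0.037%), with 27 (18.1%; 4.85%) at an unadjusted p under 0.05 and a median log2 difference of -0.79, against -0.02 over all loci tested. Solyc12g013690 was again the lower one, with a log2 difference of -2.74 (SE 0.40; edgeR adjusted p = 0.0046). Solyc08g016800 was the higher one, at 18.8 CPM in library 2, with a log2 difference of 3.95 (SE 0.50; edgeR adjusted p = 0.0017). That locus was at 0, 0.304 and 0.370 CPM with SlMYB41 knocked out and at 0.195, 0 and 0.126 CPM with SlMYB92 knocked out, below every library of the other groups.

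Among members at 2 CPM or more in the control mean, library 2 was furthest below the control in Solyc02g089140 and Solyc06g050870, and in both the mean of each knockout line came mostly from 1 library. Solyc02g089140 was at 0 CPM in library 2 and at 2.14, 0.494 and 32.0 CPM in the control, with 62.6 CPM in library 4 of knockout line 4 and 28.7 CPM in library 5 of line 5 against at most 2.69 CPM in the other knockout libraries. Solyc06g050870 was at 2.04 CPM in library 2 and at 45.0, 2.63 and 119 CPM in the control, with 995 and 327 CPM in the same pair of knockout libraries. Control library 5 was the highest control library for both. At the other extreme, Solyc10g049470 stood at 19.6 CPM in library 2 and 0 CPM in libraries 4 and 5, and Solyc02g066930 at 19.2, 2.59 and 1.83 CPM. Their control libraries were at 6.05, 11.2 and 0 CPM and at 5.91, 7.55 and 0 CPM, below library 2 in both, and both loci had fractional counts.

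Outside the libraries of the rule, the members were most often highest with SlMYB92 overexpressed. The mean with SlMYB92 overexpressed was the highest of the control and 4 MYB group means for 78 members (52%), against 23.3% of eligible loci, and the lowest for 6 (4%; 22.8%). SlMYB41 overexpression was highest for 28 (18.7%; 12.1%), the control for 21 (14%; 24.3%), the SlMYB41 knockout for 15 (10%; 19.4%) and the SlMYB92 knockout for 8 (5.33%; 20.9%). The lowest mean was in the SlMYB41 knockout for 47 members (31.3%; 23.5%), in the control for 43 (28.7%; 18.2%) and in the SlMYB92 knockout for 43 (28.7%; 18.8%).

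**Figure D3:**
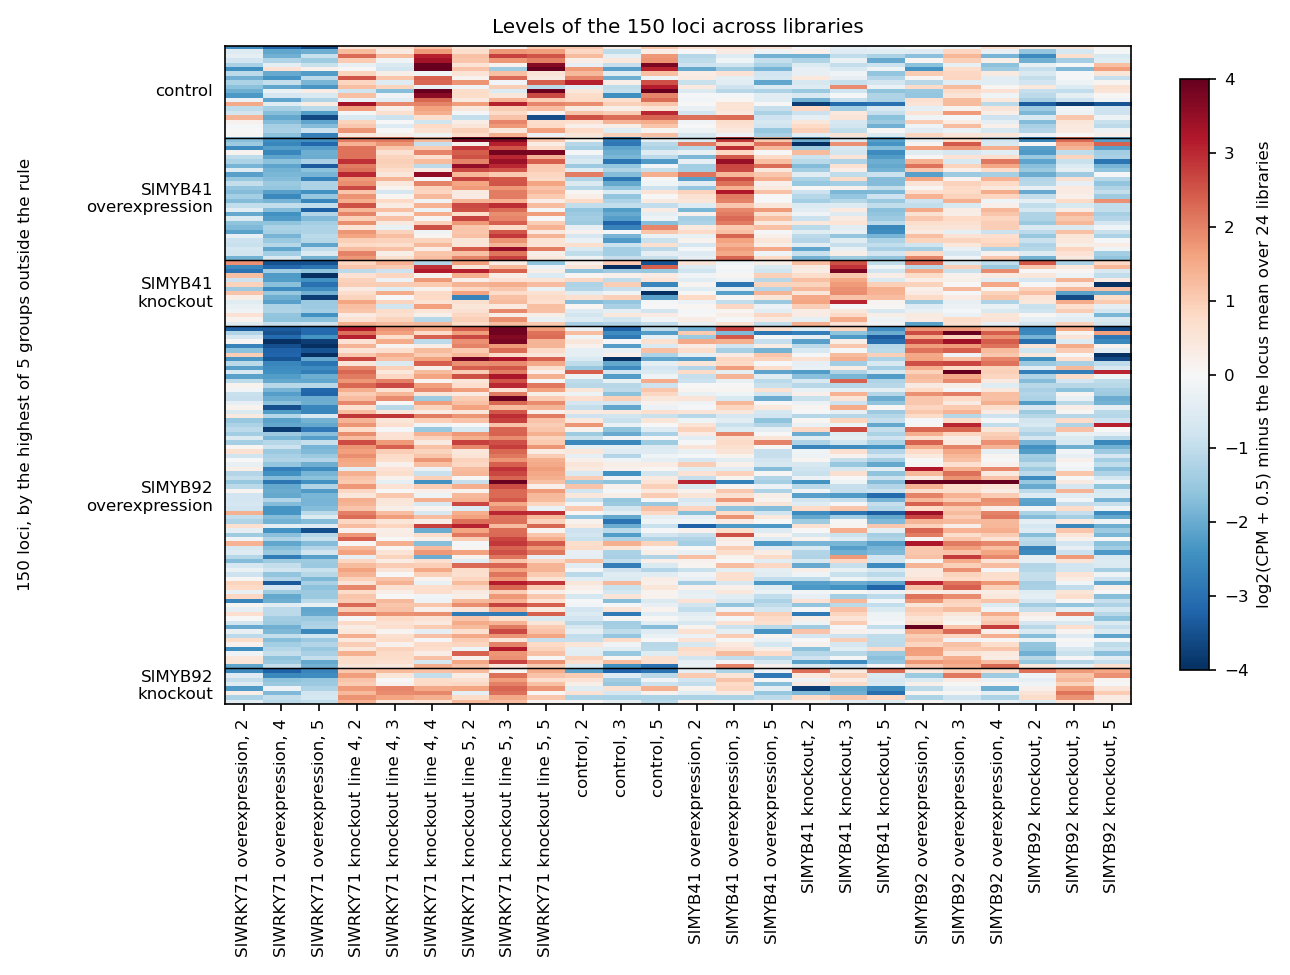
Levels of the 150 members in 24 libraries, as log2(CPM + 0.5) minus the locus mean over the libraries, with red above and blue below that mean. Rows are ordered by which of the 5 groups outside the rule had the highest mean, and the largest block holds the 78 members that were highest with SlMYB92 overexpressed.

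Between SlMYB92 overexpression and knockout, 43 members were higher with overexpression (28.9%; 4.6% of all loci tested) and 2 were lower (1.34%; 3.99%). The 43 include Solyc10g007570, at 1.56, 2.15 and 0.527 CPM with SlMYB92 overexpressed and at most 1.09 CPM elsewhere among the 16 libraries fitted. It passed the filter on low counts only through SlMYB92 overexpression libraries, so no support is drawn from its call. The members' median log2 difference was 1.47, against 0.00 over all loci tested. Solyc03g006700 stood at 266, 385 and 247 CPM with SlMYB92 overexpressed and at 17.5, 24.4 and 25.8 CPM with SlMYB92 knocked out, a log2 difference of 3.79 (SE 0.22; edgeR adjusted p = 1.4e-08). Its SlWRKY71 knockout libraries covered 220 to 659 CPM, its control 64.4 to 75.5 CPM, and SlWRKY71 overexpression libraries 2, 4 and 5 stood at 101, 53.4 and 26.3 CPM. Solyc01g005470 was at 48.5, 51.7 and 37.0 CPM with SlMYB92 overexpressed and at 2.47, 2.83 and 3.53 CPM with it knocked out, a log2 difference of 4.01 (SE 0.39; edgeR adjusted p = 6.1e-06). The groups did not overlap for either locus, and both were called under every alternative run.

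The 2 members lower with SlMYB92 overexpressed than knocked out were Solyc06g011403 and Solyc07g056420. Solyc06g011403 had 1 count in the 3 overexpression libraries and 54 in the knockout libraries, a ratio of 36.2 with a 95% counting interval of 6.23 to 1456 (edgeR adjusted p = 0.0067). It was at 0 CPM in all 3 control libraries. It passed the filter on low counts only through the MYB knockout libraries, where it was at 1.01 to 3.62 CPM. No support is drawn from its call. Solyc07g056420 was at 13.3, 23.4 and 7.07 CPM with SlMYB92 overexpressed and at 33.5, 92.2 and 41.4 CPM with it knocked out, a log2 difference of -1.88 (SE 0.53; edgeR adjusted p = 0.038). That last call was lost without SlMYB92 knockout library 3 or 5, or overexpression library 2 or 4, with adjusted p up to 0.16 over the alternatives. It was also lost with the number in the column heading fitted as a replicate block.

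Against the control, 27 members rose with SlMYB92 overexpressed (18.1%; 1.98% of all loci tested) and 3 fell (2.01%; 1.66%), with a median log2 difference of 1.46. Solyc03g006700 rose from 73.8, 75.5 and 64.4 CPM, a log2 difference of 2.14 (SE 0.20; edgeR adjusted p = 9.4e-06), and Solyc01g005470 from 3.53, 1.48 and 5.85 CPM, a log2 difference of 3.67 (SE 0.38; edgeR adjusted p = 1.9e-05). Solyc03g019690 fell from 54.0, 7.24 and 37.8 CPM to 2.43, 4.14 and 4.22 CPM, and Solyc06g072840 from 86.7, 69.8 and 73.7 CPM to 13.1, 14.0 and 7.84 CPM. Their log2 differences were -3.11 (SE 0.56; edgeR adjusted p = 0.0049) and -2.65 (SE 0.64; edgeR adjusted p = 0.03), and the call of Solyc06g072840 was lost without any 1 of the 6 libraries compared. The call of Solyc03g019690 was lost with the number in the column heading fitted as a replicate block (edgeR adjusted p = 0.057). Solyc06g072840 had fractional counts in every library. The count of 30 members called dropped to 13 without SlMYB92 overexpression library 2, 17 without library 4, and 18, 14 and 19 without control libraries 2, 3 and 5.

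With SlMYB92 knocked out, 3 members rose against the control (2.01%; 1.17% of all loci tested) and 11 fell (7.38%; 1.86%), with a median log2 difference of -0.30. The 3 include Solyc06g011403, which passed the filter only through the MYB knockout libraries, so no support is drawn from its call. Solyc08g016800 fell from 24.1, 12.6 and 14.3 CPM to the values near 0 given above, a log2 difference of -6.81 (SE 0.72; edgeR adjusted p = 1.6e-05), and Solyc03g006700 fell by 1.65 on the log2 scale (SE 0.20; edgeR adjusted p = 8.3e-05). Solyc05g046030 rose from 1.75, 0.601 and 0.806 CPM to 44.3, 31.8 and 28.3 CPM, a log2 difference of 5.03 (SE 0.54; edgeR adjusted p = 2.1e-05). Solyc08g077630 rose from 0.747, 0.987 and 1.48 CPM to 4.91, 6.54 and 5.89 CPM, a log2 difference of 2.40 (SE 0.42; edgeR adjusted p = 0.0028). Solyc05g046030 and Solyc08g077630 were also called higher with SlMYB92 overexpressed than in the control. Those log2 differences were 3.86 (SE 0.54, edgeR adjusted p = 5.1e-04) and 1.88 (SE 0.42, edgeR adjusted p = 0.022). Neither locus was called between SlMYB92 overexpression and knockout (edgeR adjusted p = 0.099 and 0.44). Solyc08g016800, Solyc05g046030 and Solyc08g077630 had fractional counts and are uncertain where near-identical copies exist. The count of 14 called was 9 without SlMYB92 knockout library 2.

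With SlMYB41 overexpressed, 4 members rose against the control (2.68%; 0.518% of all loci tested) and 2 fell (1.34%; 0.365%), with a median log2 difference of 0.42. Solyc05g050380 rose from 0.504, 0.165 and 0.595 CPM to 2.92, 10.1 and 2.20 CPM, a log2 difference of 3.49 (SE 0.70; edgeR adjusted p = 0.021). Solyc05g046030 rose to 7.17, 3.59 and 8.43 CPM, a log2 difference of 2.69 (SE 0.55; edgeR adjusted p = 0.024). Solyc03g019690 fell to 2.92, 4.17 and 1.02 CPM, a log2 difference of -3.65 (SE 0.59; edgeR adjusted p = 0.0036). Solyc03g025720 fell from 74.9, 103 and 120 CPM to 34.1, 45.8 and 21.4 CPM, a log2 difference of -1.50 (SE 0.30; edgeR adjusted p = 0.021). The libraries of each pair did not overlap. Solyc05g046030 and Solyc03g025720 had fractional counts. The call of Solyc05g050380 was lost without SlMYB41 overexpression library 3 or any 1 control library, and those of Solyc05g046030 and Solyc03g025720 without overexpression library 2 or 5 or control library 3 or 5. With only the 2 groups fitted, the calls of Solyc05g050380 and Solyc03g019690 were lost too (edgeR adjusted p = 0.065 and 0.053). The count of 6 called was 3 without overexpression library 5 or control library 3 or 5.

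With SlMYB41 knocked out, 7 members rose against the control (4.7%; 2.46% of all loci tested) and 20 fell (13.4%; 3.04%), while the median log2 difference was -0.03. The 7 again include Solyc06g011403, from whose call no support is drawn. Solyc07g062970 fell from 16.6, 14.3 and 24.9 CPM to 2.28, 2.13 and 0.987 CPM, a log2 difference of -3.26 (SE 0.33; edgeR adjusted p = 1.1e-05), and Solyc03g006700 fell to 15.2, 16.7 and 17.9 CPM, a log2 difference of -1.97 (SE 0.21; edgeR adjusted p = 1.4e-05). Solyc05g046030 rose to 45.6, 12.1 and 45.8 CPM, a log2 difference of 5.09 (SE 0.54; edgeR adjusted p = 1.7e-05), and Solyc08g077630 to 6.43, 9.58 and 7.16 CPM, a log2 difference of 2.93 (SE 0.42; edgeR adjusted p = 4.1e-04). The groups did not overlap for any of these loci. The count of 27 called was 16 without SlMYB41 knockout library 5 and 17 without control library 5. All comparisons with the control share its 3 libraries, so their counts are not independent of each other.

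Between SlMYB41 overexpression and knockout, 15 members were higher with overexpression (10.1%; 1.82% of all loci tested) and 5 were lower (3.36%; 1.18%), with a median log2 difference of 0.59. The 5 again include Solyc06g011403, from whose call no support is drawn. Solyc03g006700 was at 139, 151 and 100 CPM with SlMYB41 overexpressed, a log2 difference from the knockout of 2.91 (SE 0.21; edgeR adjusted p = 2.4e-07). Solyc07g062970 was at 17.1, 18.6 and 14.2 CPM, a log2 difference of 3.17 (SE 0.33; edgeR adjusted p = 2.0e-05). In the other direction, Solyc08g077630 was at 1.54, 1.57 and 0.771 CPM with overexpression, a log2 difference of -2.68 (SE 0.42; edgeR adjusted p = 0.0011). Solyc01g060020 was at 4.89, 9.96 and 9.85 CPM with overexpression and 77.0, 53.9 and 108 CPM with knockout, a log2 difference of -3.28 (SE 0.60; edgeR adjusted p = 0.0041). The groups did not overlap for any of the 4 loci, and the count of 20 called was 11 without SlMYB41 overexpression library 3.

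The SlMYB92 and SlMYB41 pairs share no library. Of the members higher with overexpression than knockout, 11 were called in both pairs, which is 25.6% of the 43 in the SlMYB92 pair and 73.3% of the 15 in the SlMYB41 pair. Over all loci tested, 200 were higher in both pairs, which is 23% of 871 and 58.1% of 344. They included Solyc03g006700, Solyc07g062970 and Solyc08g016800. A test of the difference between the pairs in the same fit, chosen after the data had been seen, called 4 members with a more positive SlMYB92 effect (2.68%; 0.412% of all loci tested) and 2 with a more positive SlMYB41 effect (1.34%; 0.666%). Opposite calls in the pairs were made for Solyc01g060020 and Solyc07g056420. Solyc01g060020 was at 96.2, 60.9 and 126 CPM with SlMYB92 overexpressed and at 31.0, 7.93 and 12.5 CPM with it knocked out, the reverse of the SlMYB41 pair. Solyc07g056420 was at 32.0, 52.6 and 21.7 CPM with SlMYB41 overexpressed and at 1.67, 6.65 and 4.51 CPM with it knocked out. The count of 6 called for the difference was 3 without SlMYB92 overexpression library 2 and 10 without SlMYB92 knockout library 3.

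**Figure D4:**
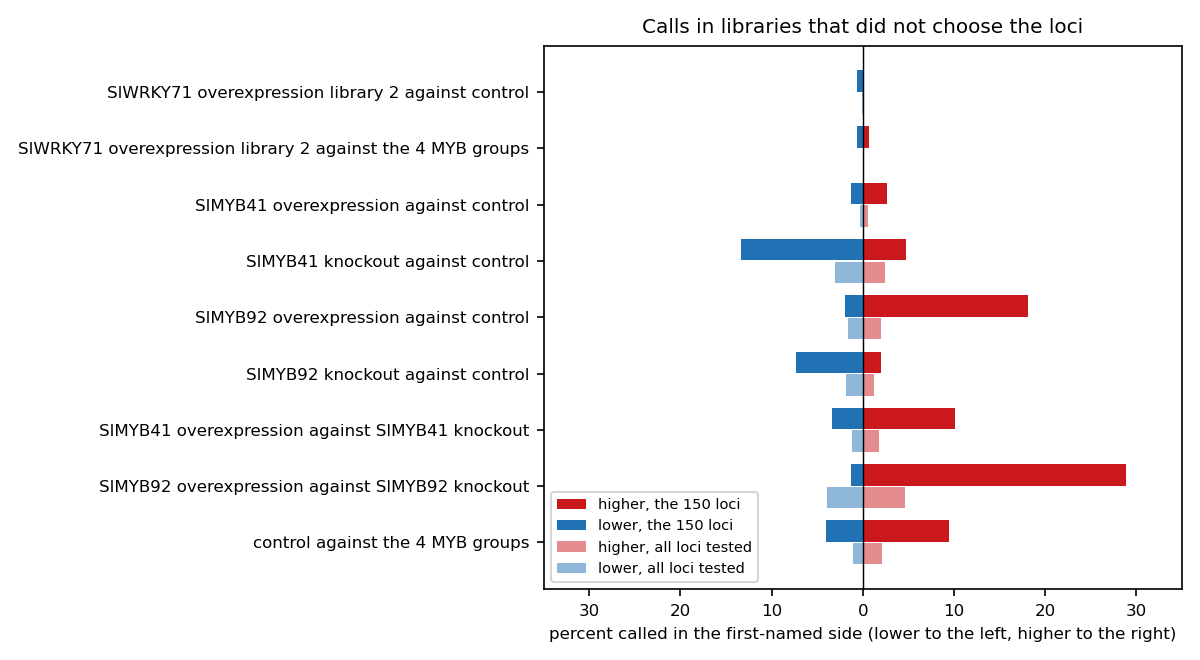
Percent of the 149 members tested (dark bars) and of all 18916 loci tested (pale bars) that were called higher (right) or lower (left) in the first-named side of each comparison. The longest bar is SlMYB92 overexpression against knockout, at 28.9% of members against 4.6% of all loci.

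The control differed from the mean of the 4 MYB groups for some members. Against that mean, 14 members were higher in the control (9.4%; 2.1% of all loci tested) and 6 were lower (4.03%; 1.05%), with a median log2 difference of -0.34. A call against this mean does not place the control outside all 4 groups. Solyc07g009060, Solyc07g062970, Solyc04g079080 and Solyc12g008800, called higher in the control, had a still higher mean with SlMYB92 overexpressed. Solyc01g005470, called lower in the control, had a still lower mean with SlMYB92 knocked out. Solyc03g019690 was higher in the control by 3.19 on the log2 scale (SE 0.36; edgeR adjusted p = 4.7e-05), with all 12 MYB libraries between 1.02 and 6.43 CPM. Its SlWRKY71 overexpression libraries were also low, at 2.18, 2.80 and 1.28 CPM, while line 4 stood at 11.0, 3.93 and 31.0 CPM and line 5 at 21.1, 5.36 and 33.0 CPM. Solyc06g072840 was higher by 1.99 (SE 0.42; edgeR adjusted p = 0.013), a call lost without control library 2 or 5. Its SlMYB41 overexpression libraries stood at 68.5, 69.1 and 7.85 CPM, against 86.7, 69.8 and 73.7 CPM in the control. That group alone was not called against the control (edgeR adjusted p = 0.83). Solyc05g046030 was lower in the control, with a log2 difference of -4.17 (SE 0.50; edgeR adjusted p = 8.0e-05); its 3 SlWRKY71 overexpression libraries, at 1.21, 0.558 and 1.08 CPM, overlapped the control, and the 6 SlWRKY71 knockout libraries ran from 9.94 to 27.1 CPM. The count of 20 called was 13 without control library 2 and 7 without control library 5.

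By their identifiers, members lay on all 12 chromosomes, and 2 more had identifiers of chromosome 0, which holds unplaced sequence. Chromosome 7 held 25 of them (16.7%), against 7.58% of eligible loci, which is 2.3 members per 100 loci there and 1.05 overall. The median log2 difference between overexpression libraries 4 and 5 and the knockout lines over all eligible loci of chromosome 7 was 0.05, and on the other numbered chromosomes it ran from 0.06 to 0.17. There were 8 runs of 2 or more members among consecutive eligible loci, which held 17 members, and 5 of the runs were on chromosome 7. Within 10 eligible loci of another member lay 50 members, of which 17 were on chromosome 7. Neither the runs nor this count were set beside a background, so no clustering is read from them. Neighbouring loci can be copies of each other, and 9 of the 17 members in runs had fractional counts; their part in the runs was not tested. Over all members 52 (34.7%) had at least 1 fractional value, against 16.3% of eligible loci.

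**Figure D5:**
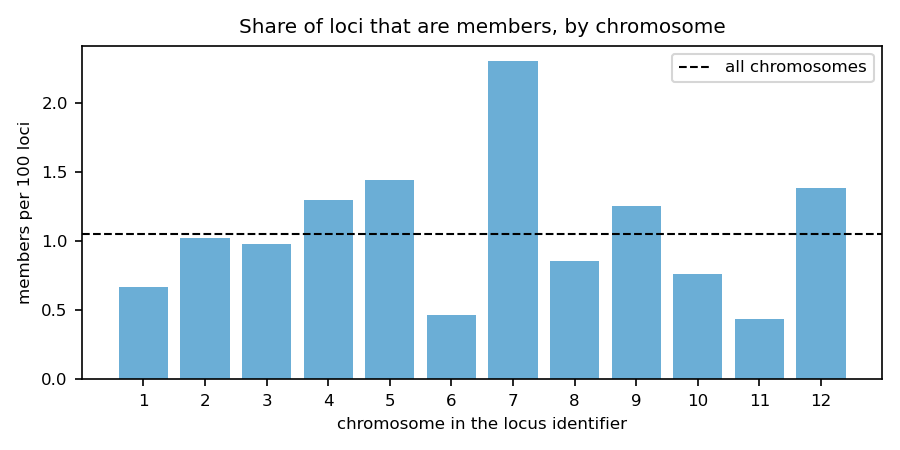
Members per 100 eligible loci on each chromosome named in the locus identifier, with the value over all chromosomes as a dashed line. Chromosome 7 stood at 2.3 and the overall value at 1.05.

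The longest run was Solyc07g009080, Solyc07g009090 and Solyc07g009100, all with fractional counts. Solyc07g009080 stood at 34.0, 3.94 and 4.64 CPM in SlWRKY71 overexpression libraries 2, 4 and 5, at 37.5, 32.6 and 30.4 CPM in the control, and at 270, 79.3 and 110 CPM with SlMYB92 overexpressed. Solyc07g009100 showed the same order, at 52.7, 2.30 and 11.2 CPM with SlWRKY71 overexpressed, 39.4, 70.8 and 32.4 CPM in the control and 235, 125 and 93.8 CPM with SlMYB92 overexpressed. In both, library 2 was within the control range and libraries 4 and 5 were below it. Solyc07g009090 was lower, at 1.27, 1.37 and 2.61 CPM with SlWRKY71 overexpressed and 4.06, 2.30 and 1.64 CPM in the control, and it reached 130, 14.8 and 47.9 CPM with SlMYB92 overexpressed. All 3 rose with SlMYB92 overexpressed against the control, by 2.27 (SE 0.45), 4.66 (SE 0.74) and 1.74 (SE 0.47) on the log2 scale in the order of the loci (edgeR adjusted p 0.0093, 0.0018 and 0.048). SlMYB92 overexpression library 2 was the highest of the 24 libraries for Solyc07g009080 and Solyc07g009090, while for Solyc07g009100 it was below the 252 CPM of library 3 of knockout line 5. Solyc07g009030 and Solyc07g009060, named after their values were seen, are members that lie just before this run, and SlMYB92 overexpression library 2 was the highest library for them too, at 133 and 399 CPM. Both had fractional counts.

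On chromosome 12, Solyc12g096890 and Solyc12g096960 formed a run that lies 10 and 17 loci of the table beyond the stretch that the rule left out. Beyond that stretch lay 5 members among 143 eligible loci. Whether they belong with the loci left out was not tested.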

How the data were processed

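The authors deposited 1 table of estimated counts per transcript, 1 transcript per locus, for 24 libraries; the submitters' processing notes list Trim Galore 0.6.6 and kallisto 0.46.2. The transcript annotation was not given in the sources used. Not whole were 6.18% of the values, at a tolerance of 1e-09, and estimated counts were rounded before testing. Strand was not marked, per the labels' protocols, so antisense and overlapping genes share reads, and transgene reads count towards the native locus.

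The members and lists were chosen with earlier results of these data known. CPM was taken from column totals. The quasi-likelihood fit of edgeR 4.0.16 (with limma 3.58.1 in R 4.3.3) used filterByExpr, TMM and a mean per group over the 16 libraries outside the rule, with 10 residual degrees of freedom and a biological coefficient of variation of 26.8%; it was tested on simulated data. P-values were Benjamini-Hochberg adjusted over 18916 loci. SE is the size of the log2 difference over the square root of F. The 95% counting interval covers counting error only. Replicate libraries differed by 7.04 to 47.9 in chi-square per degree of freedom, so no pair agreed within sampling noise.

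Loci named are the targets, the 6 ranked highest, the 2 on each side of the threshold, the 2 most abundant, up to 2 called in each direction per comparison by smallest p among those whose libraries do not overlap, the extremes of library 2 against the control, runs of 3, and, chosen after their values were seen, loci with a different effect in the MYB pairs and 2 neighbours of a run. Alternatives were another normalization (RLE), no filter, DESeq2 1.42.0, all 24 libraries, only the groups compared, a replicate block and leaving out each library. Of 34688 locus identifiers, 0 were found in the reference table, so lists by product name, cell type markers and promoter motifs were not used here.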

Additional observations from a re-analysis of the deposited data

Results flagged for a closer look

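For 6 members the effect of SlMYB92, overexpression minus knockout, differed from that of SlMYB41 by a test of the difference itself, an interaction in the same edgeR quasi-likelihood fit that was chosen after the data had been seen. Solyc01g060020 had a difference of 5.74 on the log2 scale (SE 0.82; edgeR adjusted p = 0.0021), with effects of 2.46 for SlMYB92 and -3.28 for SlMYB41. Solyc07g056420 had a difference of -4.77 (SE 0.79; edgeR adjusted p = 0.0084), with effects of -1.88 and 2.89. In these 2 loci the effects had opposite signs and were each called.

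Solyc07g009080 had a difference of 3.71 (SE 0.64; edgeR adjusted p = 0.012), with 153 CPM on average in SlMYB92 overexpression and 14.9 to 18.8 CPM in the other 3 groups of the test. Solyc01g005470 had a difference of 2.81 (SE 0.52; edgeR adjusted p = 0.017), with effects of 4.01 and 1.20, and Solyc03g005980 of 2.85 (SE 0.65; edgeR adjusted p = 0.047), with effects of 3.60 and 0.75. Solyc07g150120 had a difference of -3.28 (SE 0.69; edgeR adjusted p = 0.032), with effects of -1.40 and 1.88, neither of which was called alone. Solyc01g060020, Solyc07g056420, Solyc07g009080 and Solyc07g150120 had fractional counts in most libraries.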

How the results depend on the processing

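Of 395 recomputed values of the 30 named results, 365 kept their direction and call, 30 kept their direction and lost the call, and 0 reversed; 21 of the 30 were called under every alternative. With no filter, the members called were 2 and 5 for SlWRKY71 overexpression library 2 against the control and the MYB groups, 33 for SlMYB41 overexpression, 57 for SlMYB92 overexpression and 26 for the SlMYB92 knockout against the control, 40 and 69 for the SlMYB41 and SlMYB92 pairs, 33 for the control against the MYB groups and 19 for the difference between the pairs. With DESeq2 they were 3 for library 2 against the control, 28 for SlMYB41 overexpression against the control, 31 for the SlMYB41 pair and 18 for the difference between the pairs; the control against the MYB groups then split into 14 higher and 13 lower. With only the groups compared, library 2 against the control gave 0. The cause of these moves was not tested.

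Deviations from group means had a median correlation of -0.04 between same-numbered libraries (-0.29 to 0.35) and 0.01 between others (-0.46 to 0.49). These medians gave no sign that the numbers in the column names pair the libraries. Whether same-numbered libraries share an effect in the members was not tested. With the number as a replicate block, 11 members were called for SlMYB92 overexpression against the control and 12 for the control against the MYB groups, while SlMYB41 overexpression against the control gave 3 higher and 4 lower. Of the named results, the block changed the calls of Solyc03g019690 for SlMYB92 overexpression against the control and of Solyc07g056420 for the SlMYB92 pair, and no other.

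Leaving out 1 library at a time, the members called ran from 1 to 2 and from 2 to 3 for library 2 against the control and the MYB groups, the higher value of the first without control library 3. They ran from 3 to 6 and 13 to 20 for SlMYB41 and SlMYB92 overexpression against the control, 16 to 27 and 9 to 19 for the knockouts, 11 to 25 and 31 to 59 for the SlMYB41 and SlMYB92 pairs, 7 to 21 for the control against the MYB groups and 3 to 10 for the difference between the pairs. Counts of libraries that do not overlap ran from 49 to 82 for library 2 below the control, 85 to 120 for libraries 4 and 5 below the control, 52 to 69 for those below the MYB libraries and 65 to 78 for the control below the knockout libraries. Of the 150 members, 145 stayed with TMM library sizes, 131 with a pseudocount of 1 CPM and 121 with a minimum of 5 CPM.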
